A study of Arabidopsis thaliana with 9 samples.

Results

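The mutants spaQ and cop1-4 of Arabidopsis thaliana were set directly against each other, with 3 RNA-seq libraries each, or 6 of the 9 libraries in the series. Members were chosen by label alone: the libraries labelled spaQ and those labelled cop1-4, with all genes and a test on the raw counts. The other 3 libraries are from the wild type Col-0, the background of both mutants, and enter as a reference level and in the estimate of spread. All seedlings were dark-grown and 3 days old. After stratification for 3 days at 4 °C they received 3 h of white light, 21 h of darkness and a far-red treatment, then 2 more days of darkness. RNA came from whole seedlings. The labels do not give the alleles in spaQ, and do not say whether replicates were sown separately. The p-values therefore reflect library-to-library spread that may be technical only.

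COP1 is the ubiquitin ligase that, in darkness, marks light-promoting transcription factors such as HY5 and HFR1 for degradation. The SPA proteins SPA1, SPA2, SPA3 and SPA4 bind COP1 and are needed for that activity, so seedlings that lack either develop in the dark as if they had seen light. The name cop1-4 stands for a weak allele of COP1 with a premature stop codon, and spaQ is the usual name of the mutant in all SPA genes. Comparing the mutants directly asks where the transcriptomes of seedlings impaired in the partners of one complex differ.

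The libraries held 22482588 to 38770474 counted reads, and 20779 of 33655 features had enough reads to be tested. The 2 leading principal components were taken from only the most variable of the tested genes, so their shares of variance refer to that set. The first (91.9% of the variance) placed Col-0 at -72.7 to -70.3, cop1-4 at 22.1 to 27.4 and spaQ at 44.9 to 48.4. The second (7.21%) held cop1-4 at -19.6 to -18.6 and spaQ at 14 to 17.7. Both mutants thus lay on the same side of Col-0, and no library fell among those of another genotype. Levels are given below as CPM, read counts scaled to library size with TMM factors. Differences are the log2 of spaQ over cop1-4, with an approximate standard error (SE) in parentheses. Adjusted p-values come from the quasi-likelihood test of edgeR, adjusted by the Benjamini-Hochberg method over all 20779 genes, and a gene was called when its adjusted p was below 0.05.

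The targeted genes were read first. COP1 stood at 29.7, 34.9 and 29.8 CPM in Col-0. It had 35.7, 29.9 and 29.0 CPM in the cop1-4 libraries and 79.4, 83.2 and 75.1 CPM in spaQ. Every spaQ library was thus above every cop1-4 library, while the cop1-4 libraries overlapped those of Col-0. The log2 difference was 1.33 (SE 0.10), with an adjusted p of 5.51e-08. A stop codon need not lower the count of a gene, so the COP1 level does not check the label cop1-4.

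SPA1 went the other way, with 196, 160 and 164 CPM in cop1-4 against 40.1, 39.1 and 37.5 CPM in spaQ. SPA3 had 113, 86.2 and 81.3 CPM in cop1-4 against 26.6, 26.7 and 25.8 CPM in spaQ. Both were far lower in spaQ, by log2 differences of -2.15 (SE 0.10, adjusted p 6.68e-10) and -1.83 (SE 0.11, adjusted p 1.05e-08), without overlap between the genotypes. In Col-0, SPA1 stood at 29.2 to 34.6 CPM and SPA3 at 19.5 to 22.2 CPM, close to the spaQ levels. SPA4 was higher in spaQ, at 59.1, 64.1 and 62.2 CPM against 39.5, 31.6 and 38.9 CPM (log2 0.75, SE 0.10, adjusted p 1.53e-05). SPA2 stood at 53.7, 53.2 and 51.9 CPM in spaQ and 74.2, 58.2 and 55.2 CPM in cop1-4. It did not pass the test (adjusted p 0.0716), but did when libraries were scaled by their totals (0.0207) or without cop1-4 replicate 3 (0.0265). All 4 SPA genes thus had reads in spaQ. The count table does not show which stretch of each gene they came from.

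Over the whole transcriptome 9862 genes, 47.5% of those tested, were called. Of these, 4980 (24%) were higher and 4882 (23.5%) lower in spaQ. The counts in each list below are to be read against these shares. The libraries of the mutants did not overlap at 57.3% of genes. Most differences were small: 2054 genes (9.88%) also differed at least 2-fold, 839 of them higher (4.04%) and 1215 lower (5.85%). At least 8-fold differences were found for 75 genes higher and 94 lower. The median log2 difference over all genes tested was -0.01. Col-0 places these genes: among the 839 genes higher in spaQ at 2-fold, 516 (61.5%) had a mean level in Col-0 below both mutants, 201 lay between them and 122 above both. Among the 1215 lower genes, Col-0 was above both mutants for 840 (69.1%), between them for 279 and below both for 96.

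**Figure D1:**
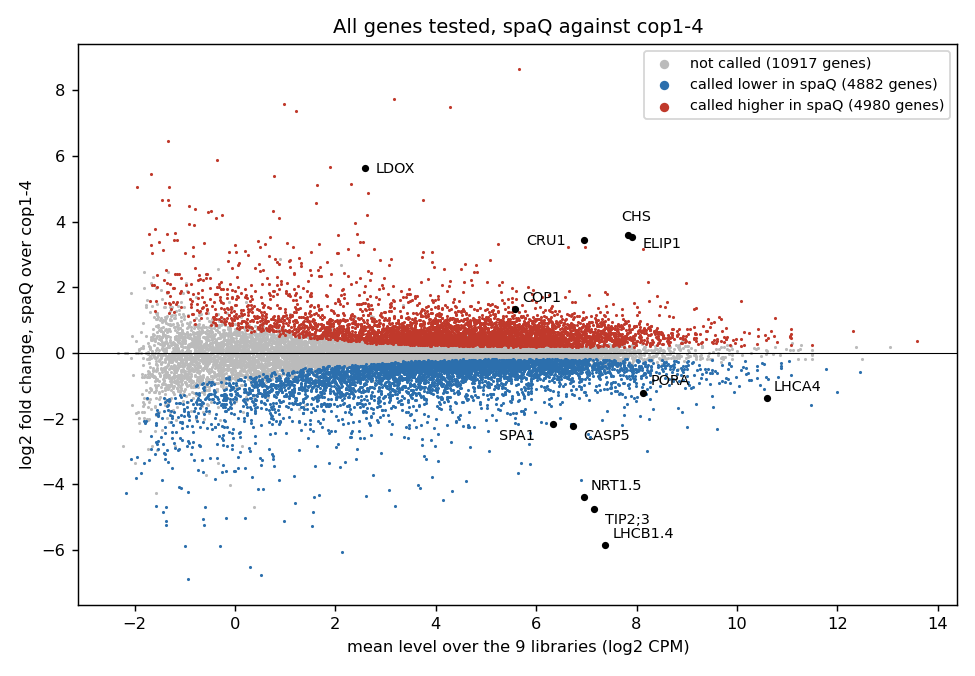
Each point is 1 of the 20779 genes tested, with the mean level over the 9 libraries in log2 CPM on the x axis and the log2 fold change of spaQ over cop1-4 on the y axis. Red marks the 4980 genes called higher in spaQ, blue the 4882 called lower and grey the rest; LDOX, CHS, ELIP1 and CRU1 lie far above 0, and LHCB1.4, TIP2;3 and NRT1.5 far below it.

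The largest rises included the anthocyanin genes LDOX, DFR, UF3GT, TT19 and TT8 described below, the cold-induced gene KIN1, the embryo protein gene EM1 and several genes with no described function. AT3G01345, annotated as an uncharacterized protein, had the largest log2 difference among called genes whose mean log2 CPM reached 1. It had 0.228, 0.388 and 0.558 CPM in cop1-4 and 163, 137 and 150 CPM in spaQ (log2 8.63, SE 0.17, adjusted p 8.29e-14). Col-0 had 1.03 to 1.36 CPM, so this gene was high in spaQ alone among the 3 genotypes. KIN1 had 1.24, 1.74 and 1.53 CPM in cop1-4 and 42.5, 37.3 and 33.3 CPM in spaQ (log2 4.65, SE 0.14, adjusted p 1.05e-11). It lies beside a near-identical copy, KIN2, so the split of reads between them is uncertain. QQS, a gene that affects starch content, had 0.652, 0.582 and 0.697 CPM in cop1-4 and 12.7, 12.1 and 10.8 CPM in spaQ (log2 4.2, SE 0.17, adjusted p 1.87e-10). Its Col-0 levels, 5.10 to 6.07 CPM, lay between the mutants.

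Among the largest falls were genes of transport across membranes. TIP2;3, a tonoplast aquaporin, had 67.2, 75.0 and 78.5 CPM in cop1-4 and 3.03, 2.2 and 3.01 CPM in spaQ (log2 -4.76, SE 0.12, adjusted p 2.05e-12). NRT1.5, which loads nitrate into the root xylem, had 49.0, 61.5 and 54.3 CPM in cop1-4 and 1.53, 3.82 and 2.23 CPM in spaQ (log2 -4.40, SE 0.20, adjusted p 8.24e-10). Col-0 was highest for both, at 337 to 363 CPM for TIP2;3 and 286 to 341 CPM for NRT1.5. SWEET3, of the SWEET sugar transporters, fell from 4.08 to 6.37 CPM in cop1-4 to 0.0730 to 0.257 CPM in spaQ, against 20.0 to 22.1 CPM in Col-0.

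Some of the steepest falls rest on a handful of reads in spaQ. The ubiquitin ligase gene PUB54 had 199 reads over the cop1-4 libraries and 3 over spaQ, a ratio of 74.9 with a 95% counting interval of 25.3 to 366. The defence marker PR1 had 59 reads against 2, a ratio of 33.3 (8.82 to 281). In Col-0 these genes stood at 8.52 to 10.5 CPM and 6.64 to 7.64 CPM, above both mutants.

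Genes of the flavonoid pathway were the most uniform block. Flavonoids begin with chalcone synthase, and branch into flavonols and, through later steps, the red anthocyanins. Of the early and flavonol genes, 9 of 10 could be tested, and all 9 were higher in spaQ, with a median log2 difference of 2.44. CHS, the entry enzyme, had 52.1, 49.4 and 51.1 CPM in cop1-4 and 693, 520 and 627 CPM in spaQ (log2 3.59, SE 0.12, adjusted p 5.20e-11). FLS1, flavonol synthase, had 9.98, 9.34 and 11 CPM in cop1-4 and 113, 90.1 and 99.8 CPM in spaQ (log2 3.32, SE 0.10, adjusted p 1.82e-11). The groups did not overlap at either gene, and the cop1-4 levels lay nearer to Col-0, which had 19.4 to 25.8 CPM for CHS and 2.77 to 3.34 CPM for FLS1. Chalcone isomerase CHI (log2 2.55), its helper CHIL (2.82), the hydroxylases F3H (2.01) and F3'H (2.44) and the flavonol glycosyltransferases UGT78D1 (1.64) and UGT78D2 (1.5) rose as well.

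All 10 late anthocyanin genes were higher in spaQ, with a median log2 difference of 3.46. The smallest difference, in the glucosidase-family gene BGLU10 (0.35), was not called without spaQ replicate 3, which left 9. For the enzymes that make the anthocyanin core the cop1-4 seedlings were close to the floor of detection. LDOX, anthocyanidin synthase, had 0.261, 0.233 and 0.604 CPM in cop1-4 and 20.8, 15.5 and 16.5 CPM in spaQ (log2 5.64, SE 0.26, adjusted p 8.24e-10). DFR, dihydroflavonol reductase, had 0.261, 0.155 and 0.883 CPM in cop1-4 and 17.5, 12.6 and 13.4 CPM in spaQ (log2 5.16, SE 0.31, adjusted p 9.85e-09), and log2 6.06 without cop1-4 replicate 3. UF3GT, which adds xylose to the anthocyanin sugar, had 0.0978, 0.194 and 0.372 CPM in cop1-4 and 13.2, 9.81 and 9.34 CPM in spaQ (log2 5.68, SE 0.30, adjusted p 3.19e-09). Col-0 was lower still, at most 0.0910 CPM for all 3. The acyltransferase gene 5MAT (4.1), the glucosyltransferase gene UGT75C1 (2.82, or 3.45 without cop1-4 replicate 1) and TT19 (4.86), a glutathione transferase needed for moving the pigment to the vacuole, rose by smaller log2 differences. The sinapoyl step SAT was already up in cop1-4, at 6.49 to 6.63 CPM against at most 0.0933 CPM in Col-0, and rose to 19.5 to 21.5 CPM in spaQ.

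**Figure D2:**
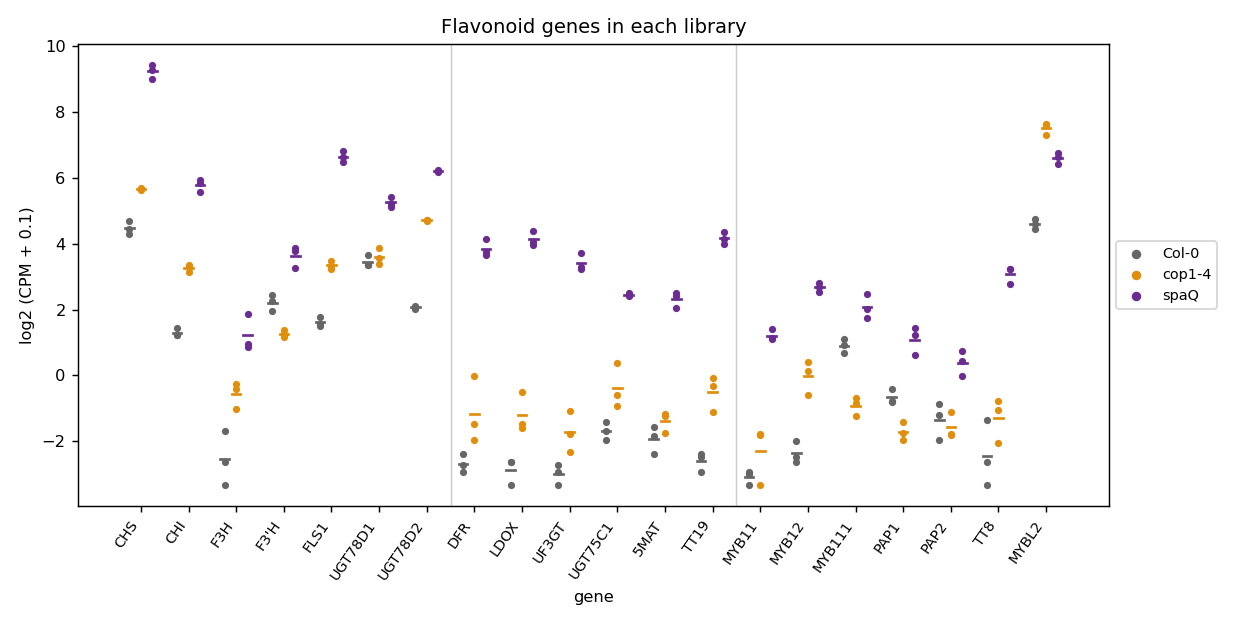
Points are single libraries, with the level as log2 of CPM plus 0.1 on the y axis and genes on the x axis; short bars are group means, and grey lines part early, late and regulatory genes. For DFR, LDOX and UF3GT the spaQ points stand apart from those of both other genotypes, while MYBL2 is highest in cop1-4.

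The promoters of CHS, UF3GT and DFR are shown because these genes differed strongly and hold a G-box, the letters CACGTG, which HY5 and related factors are known to bind. Each is the 250 bases before the annotated start of the gene, 5′ to 3′ in the direction of transcription, from RefSeq TAIR10.1, with the G-box in capitals.
CHS, chr5:4488226-4488475, plus strand: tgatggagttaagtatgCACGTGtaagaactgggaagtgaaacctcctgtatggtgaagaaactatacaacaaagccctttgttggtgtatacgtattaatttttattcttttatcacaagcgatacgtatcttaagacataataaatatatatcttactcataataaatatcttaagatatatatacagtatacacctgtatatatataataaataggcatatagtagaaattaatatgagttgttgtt
UF3GT, chr5:21938397-21938646, minus strand: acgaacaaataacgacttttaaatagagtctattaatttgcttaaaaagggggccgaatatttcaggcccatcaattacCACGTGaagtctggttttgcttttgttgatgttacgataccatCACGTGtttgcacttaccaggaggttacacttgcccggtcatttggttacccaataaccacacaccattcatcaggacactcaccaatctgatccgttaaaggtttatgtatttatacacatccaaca
DFR, chr5:17166033-17166282, minus strand: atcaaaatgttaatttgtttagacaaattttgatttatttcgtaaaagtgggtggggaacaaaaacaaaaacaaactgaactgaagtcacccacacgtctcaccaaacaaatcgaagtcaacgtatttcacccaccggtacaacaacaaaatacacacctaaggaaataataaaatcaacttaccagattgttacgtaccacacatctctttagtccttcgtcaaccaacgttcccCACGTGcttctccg
The motif begins at position -233 in CHS, at -171 and -128 in UF3GT and at -14 in DFR, counted back from the start. CACGTG reads the same on both strands, so a single search covers both. It was found in 3 of the 9 early and 3 of the 10 late promoters, and not in that of LDOX. Of all genes tested, 7.34% hold it in the same window, against 14.1% of those higher in spaQ at 2-fold and 6.68% of those lower. A match is a string of letters, not evidence of binding.

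The regulators of these enzymes did not all move alike. Of 14 tested, 8 were higher, 1 was lower and 5 were not called. The flavonol regulators MYB12, MYB11 and MYB111, which act on the early genes, all rose. MYB12 had 1.01, 1.24 and 0.558 CPM in cop1-4 and 5.73, 6.36 and 6.95 CPM in spaQ (log2 2.73, SE 0.23, adjusted p 3.05e-07). MYB111 rose by log2 3.22 and MYB11 by 4.21 (3.52 without cop1-4 replicate 1). The anthocyanin regulator PAP1 had 0.196, 0.155 and 0.279 CPM in cop1-4 and 2.59, 1.43 and 2.23 CPM in spaQ (log2 3.3, SE 0.37, adjusted p 4.92e-06), and its relative PAP2 rose by 2.27. TT8, the bHLH partner of PAP1, had 0.489, 0.388 and 0.139 CPM in cop1-4 and 9.35, 9.36 and 6.80 CPM in spaQ (log2 4.56, SE 0.37, adjusted p 2.02e-07). Its other partners GL3, EGL3 and TTG1 were not called. The repressor MYBL2 was the member called lower, with 160, 198 and 198 CPM in cop1-4 and 86.3, 100 and 109 CPM in spaQ (log2 -0.91, SE 0.11, adjusted p 8.06e-06).

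The phenylpropanoid genes upstream of flavonoids and sinapate esters did not move together: 7 of 12 were higher, 4 lower. FAH1, ferulate hydroxylase, had 21.7, 21.0 and 19.9 CPM in cop1-4 and 80.8, 97.3 and 82.2 CPM in spaQ (log2 2.06, SE 0.10, adjusted p 9.00e-10). UGT84A2, the sinapate glucosyltransferase, rose by log2 1.90, and 4CL3, the ligase tied to flavonoid synthesis, by 3.07. PAL1 and C4H rose by 0.82 and 0.57. The lignin-linked ligases 4CL1 and 4CL2 fell (log2 -0.77 and -1.03), as did PAL4 (-1.70) and the sinapoylmalate enzyme SNG1 (-0.50).

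Photoprotection genes were also mostly higher, 9 of 12 with 1 lower, at a median of 0.81. ELIP1, an early light-induced protein of the thylakoid, had 65.7, 49.7 and 52.1 CPM in cop1-4 and 690, 635 and 624 CPM in spaQ (log2 3.54, SE 0.13, adjusted p 1.04e-10). ELIP2 had 98.7, 76.7 and 75.2 CPM in cop1-4 and 787, 723 and 729 CPM in spaQ (log2 3.16, SE 0.16, adjusted p 1.63e-09). In Col-0 both stood between 8.34 and 14.6 CPM, so cop1-4 was raised over Col-0 and spaQ over cop1-4. RUP1 and RUP2, repressors of UV-B signalling, rose by 1.23 and 1.35, and PSBS, needed for energy dissipation, by 1.1. The UV-B receptor gene UVR8 was the member called lower, by a log2 difference of -0.33.

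Among 18 light-signalling genes 7 were higher and 5 lower, with a median of -0.06. The genes of the COP1 substrates HY5, HYH and HFR1 rose. HY5 had 12.6, 10.5 and 12 CPM in cop1-4 and 34.2, 35.5 and 32.3 CPM in spaQ (log2 1.54, SE 0.09, adjusted p 7.77e-09). Its cop1-4 levels were below those of Col-0 (14.3 to 15.9 CPM) and its spaQ levels above them. The HY5 homologue HYH had 38.2, 30.0 and 33.5 CPM in cop1-4 and 105, 98.8 and 94.4 CPM in spaQ (log2 1.55, SE 0.13, adjusted p 2.13e-07), and HFR1 rose by 1.18. CGA1, a GATA factor of chloroplast development, rose by 1.71 and the sigma factor SIG5 by 0.98. PAR1, an inhibitor of growth-promoting bHLH proteins, fell by 1.08 and FHY1, the carrier of phytochrome A into the nucleus, fell by 0.56. Without spaQ replicate 3 the lower count was 3 rather than 5.

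B-box factors, which act beside HY5, were higher for 11 of 18 and lower for 4. BBX32 had 3.88, 3.14 and 3.07 CPM in cop1-4 and 21.3, 23.5 and 20.5 CPM in spaQ (log2 2.68, SE 0.12, adjusted p 7.70e-10), from 0.105 to 0.152 CPM in Col-0. BBX30 (1.51), BBX18 (1.36) and BBX25 (1.15), which are negative regulators of photomorphogenesis, rose too. The positive regulators BBX21 and BBX22 fell by 0.39 and 0.43. The members that moved furthest thus include repressors.

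The phytochrome-interacting factors (PIFs), which promote growth in the dark, went both ways. PIF4 had 34.7, 45.0 and 44.0 CPM in cop1-4 and 12.9, 14.6 and 16.1 CPM in spaQ (log2 -1.5, SE 0.12, adjusted p 1.49e-07). The spaQ levels overlapped those of Col-0 (11.7 to 14.6 CPM). PIF5 had 130 to 133 CPM in cop1-4 and 86.3 to 93.6 CPM in spaQ (log2 -0.54). PIF8 rose from 40.4 to 42.1 CPM in cop1-4 to 124 to 125 CPM in spaQ (log2 1.60), and the shade marker PIL1 from 9.85 to 12.2 CPM to 30.6 to 33.0 CPM (log2 1.49). Of the 14 genes in this list 4 were higher, 6 lower and 4 not called.

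**Figure D3:**
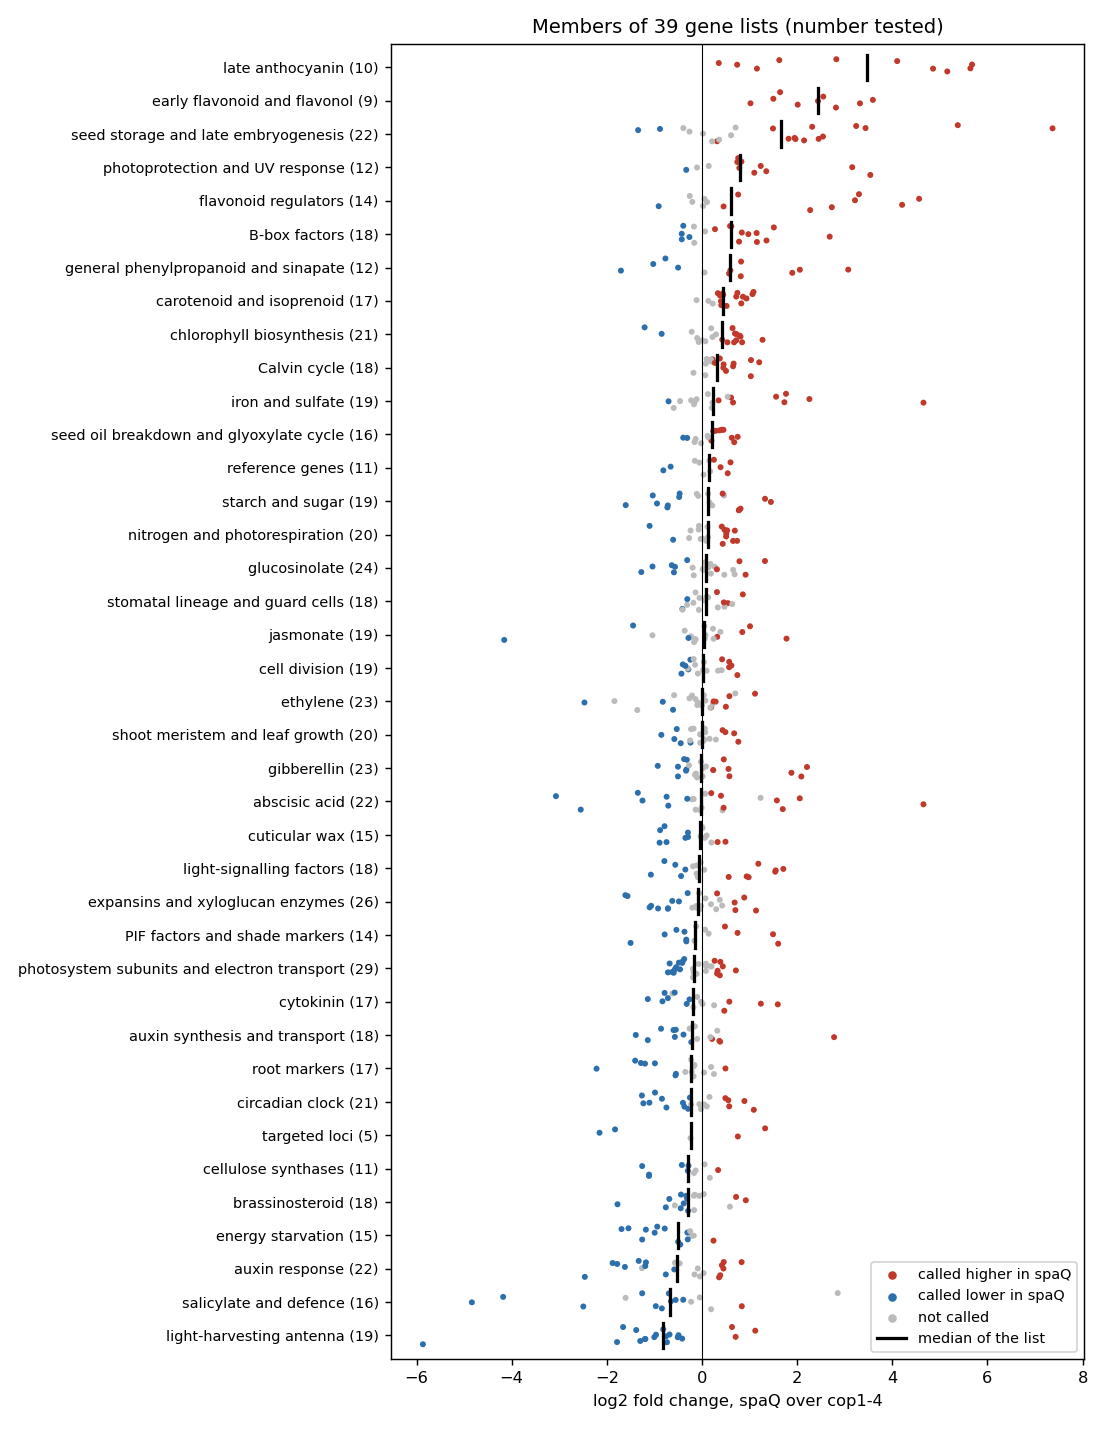
Each row is 1 of 39 gene lists, with the number of members tested; points are members, placed by the log2 fold change of spaQ over cop1-4 and coloured by call, and the black bar is the list's median. Late anthocyanin genes lie furthest right (median 3.46), light-harvesting antenna genes furthest left (median -0.82), and most hormone lists straddle 0.

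Genes of the light-harvesting antenna, the proteins that hold chlorophyll around the photosystems, showed the opposite pattern to flavonoids. Of 19 tested, 16 were lower in spaQ and 3 higher, with a median of -0.82. LHCB1.2 had 1141, 1142 and 996 CPM in cop1-4 and 269, 331 and 350 CPM in spaQ (log2 -1.79, SE 0.12, adjusted p 3.01e-08). LHCA4 of photosystem I had 3035, 3357 and 3230 CPM in cop1-4 and 1060, 1303 and 1326 CPM in spaQ (log2 -1.38, SE 0.11, adjusted p 9.70e-08). The spaQ libraries stayed above Col-0, at 27.0 to 36.2 CPM for LHCB1.2 and 178 to 219 CPM for LHCA4, so these antenna genes were raised in both mutants and less so in spaQ.

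LHCB1.4 stood apart. It had 403, 568 and 478 CPM in cop1-4 and 6.43, 8.70 and 9.69 CPM in spaQ, near the 4.73 to 9.07 CPM of Col-0 (log2 -5.87, SE 0.21, adjusted p 8.74e-11). It belongs to a family of near-identical genes, so how reads were assigned among copies is uncertain. Its neighbour LHCB1.5 had 0 reads in every library, but 100% of that gene overlaps other annotated genes. That 0 therefore does not show how reads were shared among copies. LHCB1.4 also lies within 1 Mb of COP1, where linked background sequence and genotype cannot be told apart. The 3 members called higher were LHCB4.3 (1.12), LHCA5 (0.71) and LHCA6 (0.63), minor or atypical antenna proteins. Summed over the list, levels were 29564 to 31572 CPM in cop1-4, 13498 to 16314 CPM in spaQ and 3371 to 4089 CPM in Col-0.

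Of 29 photosystem and electron transport genes 11 were lower (37.9%, against 23.5% of all genes), 7 higher and 11 not called, with a median of -0.18; scaled by library totals, 15 were lower and 6 higher. The lower members included the photosystem I subunits PSAD2 (-0.72), PSAE2 (-0.68) and PSAF (-0.63), and the higher ones ATPD (0.71) of the chloroplast ATP synthase and PETC (0.37), the Rieske protein. In the Calvin cycle 11 of 18 genes were higher and none was called lower, with a median of 0.32. RBCS1B, a Rubisco small subunit, had 905, 753 and 707 CPM in cop1-4 and 1633, 1595 and 1600 CPM in spaQ (log2 1.03, SE 0.12, adjusted p 5.14e-06), and the aldolase FBA1 and the regulator CP12-2 rose by 1.03 and 1.2. Scaled by library totals, 10 Calvin genes were higher and 1 lower.

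Pigment synthesis was likewise higher in spaQ. In chlorophyll synthesis 11 of 21 genes rose and 2 fell, with a median of 0.43. DVR, the divinyl reductase, had 72.2, 56.8 and 57.9 CPM in cop1-4 and 149, 156 and 146 CPM in spaQ (log2 1.27, SE 0.10, adjusted p 1.69e-07). The lower genes were PORA (-1.21) and PORB (-0.85), the protochlorophyllide reductases of etiolated tissue, while PORC, the form of light-grown tissue, rose by 0.72. PORA had 775 to 852 CPM in Col-0, 17.3, 22.8 and 21.2 CPM for cop1-4 and 6.31 to 10.4 CPM in spaQ. In carotenoid and isoprenoid synthesis 14 of 17 genes rose and none was called lower, among them phytoene synthase PSY (0.94), the hydroxylases BCH1 (0.83) and BCH2 (1.08) and the tocopherol cyclase VTE1 (1.06).

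**Figure D4:**
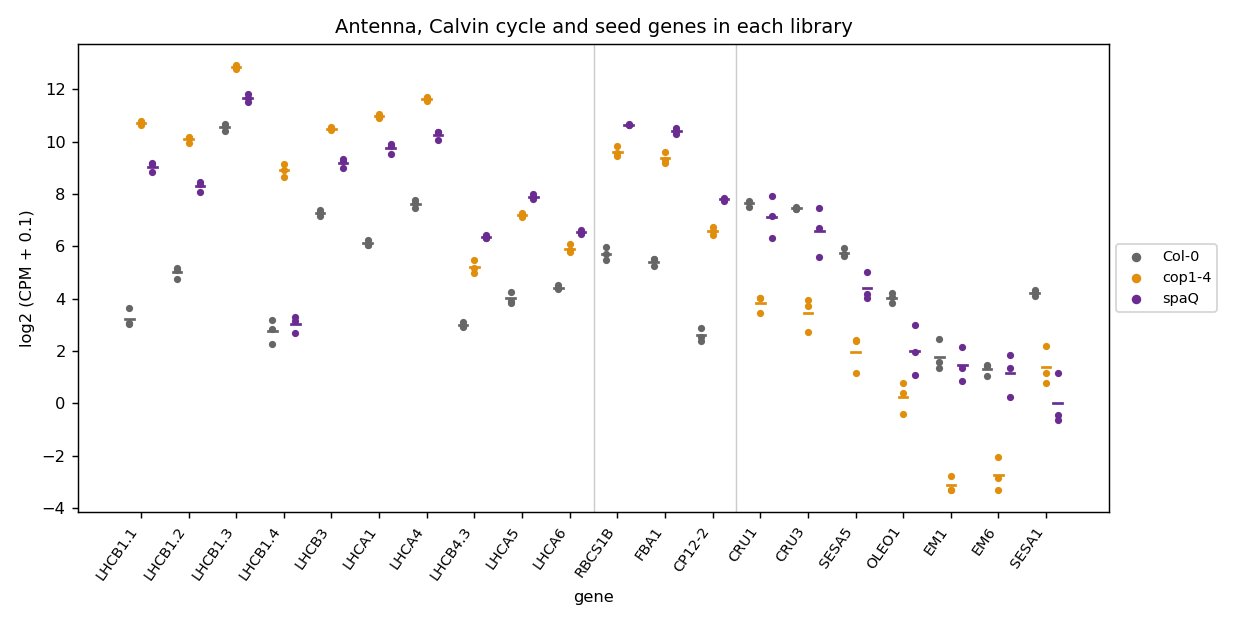
Points are single libraries, with the level as log2 of CPM plus 0.1 on the y axis and genes on the x axis; short bars are group means, and grey lines part antenna, Calvin cycle and seed genes. Most antenna genes are highest in cop1-4 and the Calvin genes in spaQ, while CRU1, CRU3, EM1 and EM6 are lowest in cop1-4.

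Seed storage and late embryogenesis genes, which are normally shut off after germination, were among the most changed: 13 of 22 were higher, 2 lower, with a median of 1.66. CRU1, which encodes a cruciferin storage globulin, had 211, 183 and 208 CPM in Col-0, 10.8, 16.2 and 16.1 CPM for cop1-4 and 240, 80.5 and 144 CPM in spaQ (log2 3.44, SE 0.30, adjusted p 3.40e-07). CRU3 had 6.49, 15.5 and 13.1 CPM in cop1-4 and 177, 47.9 and 104 CPM in spaQ (log2 3.24, SE 0.37, adjusted p 5.61e-06). The mutants did not overlap at either gene, and the spaQ libraries came nearer to the Col-0 levels. The embryo protein genes EM1 and EM6 had 1 and 4 reads over all cop1-4 libraries against 242 and 197 over spaQ. For EM1 the ratio was 214, with a 95% counting interval of 38.1 to 8500.

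The seed genes were not a uniform block. The oleosin gene OLEO1 rose by log2 1.97 (1.32 without spaQ replicate 1) and the albumin SESA5 by 2.45, but the albumin SESA1 was lower (log2 -1.34, adjusted p 0.0184). That call was lost under DESeq2 (adjusted p 0.0693) and without cop1-4 replicate 2, spaQ replicate 2 or spaQ replicate 3. DOG1, a dormancy regulator, had 7.73 to 10.1 CPM in cop1-4 and 4.53 to 5.43 CPM in spaQ. Summed levels were 657 to 738 CPM in Col-0, 98.8, 139 and 138 CPM for cop1-4, and 604, 249 and 397 CPM in spaQ. The spaQ libraries thus ranged widely, with replicate 1 highest; without it the list's median was 1.18, with 13 higher and 3 lower. The part that timing of germination or remaining seed tissue plays was not tested.

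The promoters of EM6 and OLEO1 are shown because the seed list had the highest share of G-boxes among the 39 lists, 9 of 22 (40.9%). The window, build and capitals are as above.
EM6, chr2:16780369-16780618, minus strand: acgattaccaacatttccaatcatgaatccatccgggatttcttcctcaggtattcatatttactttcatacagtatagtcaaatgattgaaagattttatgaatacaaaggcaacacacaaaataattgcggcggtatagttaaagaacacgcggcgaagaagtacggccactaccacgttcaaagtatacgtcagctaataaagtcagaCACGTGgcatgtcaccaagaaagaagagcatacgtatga
OLEO1, chr4:12900180-12900429, plus strand: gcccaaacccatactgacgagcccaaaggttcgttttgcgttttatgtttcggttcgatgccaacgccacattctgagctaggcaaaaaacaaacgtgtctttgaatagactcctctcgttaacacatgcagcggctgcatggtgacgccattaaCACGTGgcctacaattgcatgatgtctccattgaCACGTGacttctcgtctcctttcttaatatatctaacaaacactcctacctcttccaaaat

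Of the genes for the use of stored oil 9 of 16 were higher and 2 lower, with a median of 0.22. ICL, isocitrate lyase of the glyoxylate cycle, had 5281, 4716 and 5191 CPM in cop1-4 and 9572, 7011 and 7697 CPM in spaQ (log2 0.68, SE 0.11, adjusted p 1.20e-04), and malate synthase MLS rose by 0.75. Genes that respond to energy starvation went down, 11 of 15 with 1 higher and a median of -0.50. The dark-induced genes DIN1 (-0.94), DIN2 (-1.18) and DIN6 (-1.0), the aminotransferase gene BCAT2 (-1.55) and the dormancy-associated genes DRM1 (-1.26) and DRM2 (-1.69) fell. DIN6, an asparagine synthetase, had 2001, 1892 and 1810 CPM in cop1-4, 829, 1003 and 1029 CPM in spaQ and 306 to 358 CPM in Col-0. The separate starch and sugar list was mixed, with 6 of 19 higher (31.6%), 7 lower (36.8%) and a median of 0.13. In it the sugar exporters SWEET11 and SWEET12 fell by 0.95 and 1.60, and the phloem loader SUC2 fell by 0.72. The amylase BAM3 and the starch synthase GBSS1 rose by 1.45 and 1.32.

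Circadian clock genes were lower for 10 of 21 and higher for 5. The clock components PRR7 (-1.23), PRR5 (-1.26), GI (-0.75) and TOC1 (-0.40) fell, and the morning gene LHY (0.89) and the evening complex gene ELF4 (1.09) rose. PRR7 had 457, 406 and 371 CPM in cop1-4 and 150, 196 and 179 CPM in spaQ, with 22.8 to 26.6 CPM in Col-0. LHY had 312, 209 and 226 CPM in cop1-4 and 499, 455 and 431 CPM in spaQ. A single harvest cannot tell a shifted phase from a changed level.

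Hormone genes gave mixed differences. In the auxin response list 9 of 22 were lower and 6 higher, with a median of -0.52. The median was -0.27 without cop1-4 replicate 2 and -0.32 with the 6 mutant libraries alone, where 20 members were tested. IAA3 had 13.3, 14.7 and 17.2 CPM in cop1-4 and 6.35, 5.59 and 6.02 CPM in spaQ (log2 -1.33, SE 0.11, adjusted p 1.98e-07). IAA19 (-1.18) and LBD18 (-1.62) fell too, and the conjugating enzyme gene GH3.3 rose (0.83). Among genes of auxin synthesis and transport 8 of 18 were lower, including the influx carriers LAX1 (-1.14) and LAX3 (-0.57) and the efflux carrier PIN7 (-0.60), and 4 higher, including YUC5 (2.78). The 4 fell to 2 without cop1-4 replicate 2.

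Brassinosteroid genes were lower for 9 of 18 and higher for 2. The biosynthetic genes DWF4 (-0.76), DWF1 (-0.69), CPD (-0.45) and BR6OX1 (-1.78) fell, and the growth-promoting bHLH gene PRE6 rose (0.92). In the cytokinin list 7 of 17 were lower, among them the type-A response regulators ARR3, ARR5, ARR6 and ARR7 (-0.83, -1.14, -0.79 and -0.72), and 4 higher, among them the activating enzyme LOG1 (1.24). In the abscisic acid list 7 of 22 were higher and 7 lower (31.8% each, against 24% and 23.5% of all genes). CYP707A2, which breaks the hormone down, had 15.2, 17.1 and 13.5 CPM in cop1-4 and 60.0, 67.8 and 63.0 CPM in spaQ (log2 2.06, SE 0.10, adjusted p 1.48e-09), and NCED3, which makes it, fell by 2.55.

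Of 23 gibberellin genes 7 (30.4%) were higher and 7 (30.4%) lower (4 without spaQ replicate 1), against 24% and 23.5% of all genes. The inactivating oxidase GA2OX8 rose by 2.09 and the activating oxidase GA3OX2 by 1.88. Ethylene genes were mostly not called (14 of 23): 6 (26.1%) were higher, among them the oxidase ACO1 (1.11), and 3 (13%) lower, with 5 lower when scaled by library totals. ACS5, an ACC synthase, had 2.09 to 2.65 CPM in cop1-4 and 0.352 to 0.485 CPM in spaQ (log2 -2.47). Of 19 jasmonate genes 4 (21.1%) were higher and 3 (15.8%) lower (5 when scaled by library totals), both below the shares over all genes. The repressor gene JAZ9 (0.85) and the synthesis gene AOC1 (1.78) rose. The storage protein gene VSP1, a jasmonate marker, had 53 reads over the cop1-4 libraries and 3 over spaQ, a ratio of 19.9 with a 95% counting interval of 6.47 to 99.8. The lipoxygenase gene LOX4 had 2.54, 2.87 and 3.49 CPM in cop1-4 and 0.913, 1.71 and 0.469 CPM in spaQ (log2 -1.45).

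Salicylate and defence genes were lower for 10 of 16 and higher for 1. ICS1, which makes salicylate in defence, had 51.2, 57.4 and 50.7 CPM in cop1-4 and 26.9, 26.3 and 28 CPM in spaQ (log2 -0.97, SE 0.08, adjusted p 1.85e-07). PBS3, the next enzyme, had 3.91, 5.85 and 3.90 CPM in cop1-4 and 0.0730, 0.542 and 0.0391 CPM in spaQ (log2 -4.18, or -6.23 without spaQ replicate 2). EDS1 (-0.65) and WRKY70 (-0.84) fell as well, while PAD4, a partner of EDS1, rose (0.84). RPP4 (-1.26) belongs to a cluster of closely related resistance genes, so its reads may be shared.

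Growth and wall genes leaned lower. Of 26 expansin and xyloglucan enzyme genes 10 were lower and 5 higher: EXPA5 had 16.3, 17.4 and 20.5 CPM in cop1-4 and 6.28, 5.73 and 5.70 CPM in spaQ (log2 -1.61, SE 0.10, adjusted p 1.93e-08), and EXPA8 fell by 1.57. XTH15 went the other way, from 146 to 150 CPM in cop1-4 to 296 to 344 CPM in spaQ (log2 1.14). Of 11 cellulose synthase genes 6 were lower and 1 higher, and the largest falls were in CESA4 (-1.26), CESA7 (-1.12) and CESA8 (-1.11), the synthases of the secondary wall in xylem and fibres. CESA4 had 36.0, 29.3 and 32.9 CPM in cop1-4 and 13.3, 13.4 and 14.4 CPM in spaQ, with 53.7 to 57.6 CPM in Col-0.

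Root markers were lower for 7 of 17 and higher for 1. The Casparian strip genes of the root endodermis led: CASP5 had 267, 223 and 231 CPM in Col-0, 57.1, 62.5 and 69.9 CPM for cop1-4 and 15.2, 11.8 and 13.8 CPM in spaQ (log2 -2.22, SE 0.11, adjusted p 1.99e-09). CASP1 (-1.20), CASP2 (-1.41) and their regulator MYB36 (-0.56) also fell, and the endodermal identity gene SCR rose (0.49). Summed over the list, levels were 840 to 941 CPM in Col-0, 383 to 474 CPM for cop1-4 and 286 to 307 CPM in spaQ. These are whole seedlings, so fewer cells of a type and less RNA per cell cannot be told apart, here and for the falls of NRT1.5 and CESA4. The part of the root markers in those falls was not tested.

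Of 18 stomatal genes 4 (22.2%) were higher, 2 (11.1%) lower and 12 not called. Of 19 cell division genes 5 (26.3%) were higher, 5 (26.3%) lower and 9 not called. Of 20 shoot meristem and leaf growth genes 4 (20%) were higher, 5 (25%) lower and 11 not called. Of all 20779 genes tested 24% were higher, 23.5% lower and 10917 not called. No member of these lists was called at 2-fold, against 9.88% of all genes. The cell division list had a median of 0.02, and its higher members included the replication genes MCM5 (0.74), MCM2 (0.57), PCNA1 (0.62) and PCNA2 (0.57). In the lists of cell division and shoot meristem genes 5 members each were lower. For cell division 1 to 3 were without cop1-4 replicate 1 or 2 or any 1 spaQ library. For the meristem list 2 or 3 were without cop1-4 replicate 1 or 3 or spaQ replicate 2 or 3, and 3 under DESeq2 or a replicate block. Of 24 glucosinolate genes 4 (16.7%) were higher and 6 (25%) lower, against 24% and 23.5% of all genes, with a median of 0.09. The lower ones included CYP79B2 (-1.04), CYP79B3 (-0.64) and CYP83B1 (-0.57) of the tryptophan branch, and UGT74C1 rose (1.32). Of 15 wax genes 7 were lower, led by CER1 (-0.79), DEWAX (-0.75) and KCS2 (-0.88), and 2 higher.

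In the iron and sulfate list 8 of 19 were higher and 1 lower: the sulfate reductase APR2 had 9.69, 8.38 and 8.37 CPM in cop1-4 and 26.6, 25.7 and 25.7 CPM in spaQ (log2 1.56, SE 0.09, adjusted p 6.12e-09), and the iron regulators BHLH39 (1.73) and BHLH101 (2.26) rose while FIT fell (-0.70). Nitrogen and photorespiration genes were higher for 9 of 20 and lower for 2, with ASN2 (0.69) and GLN1.2 (0.65) up and GDH1 (-1.10) and the nitrate transporter NRT1.1 (-0.61) down. Of 11 genes often used as references 4 were higher and 2 lower. ACT2 had 3213, 2957 and 2988 CPM in cop1-4 and 1860, 1887 and 2049 CPM in spaQ (log2 -0.66), and ACT8 fell by 0.81, while UBC21 and UBQ10 were not called.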

How the data were processed

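RNA-seq of 9 libraries, 3 each of Col-0, cop1-4 and spaQ, was analysed from the table of raw read counts per gene that the authors deposited. FastQC, TopHat, Bowtie2, HTSeq and DESeq2 are listed, without versions, in the submitters' processing notes, which give TAIR10 as the build. The strand setting is not given in the sources used here, so overlapping genes cannot be told apart. The authors' tables of regulated genes were not used. Every row named a feature, 7726 of 33655 features were at 0 everywhere, and libraries held 22482588 to 38770474 reads.

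Counts were tested with edgeR 4.0.16 (R 4.3.3): filterByExpr, TMM scaling, glmQLFit and glmQLFTest with genotype as the only term over all 9 libraries (6 residual degrees of freedom), and the contrast spaQ minus cop1-4. P-values were adjusted by Benjamini-Hochberg and called below 0.05. The SE was calculated back as the size of the log2 difference divided by the square root of the test's F statistic, so it is approximate. The script was tested on simulated data. Alternatives were other scaling, no filter, DESeq2 1.42.0, the 6 mutant libraries alone, a replicate block and leaving out each library. Intervals of read ratios are exact at 95% and, like the floor of 3 reads per library, cover counting error only.

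The rule for named genes took COP1 and SPA1 to SPA4, the 12 largest rises and 12 largest falls (called, mean log2 CPM at least 1, libraries not overlapping), and up to 4 members of each list by adjusted p; other list members are named where a step is described. The 39 lists (725 genes, 687 tested) and the comparison itself were chosen with earlier results of these data known, so lists are counted and not tested. Names, products and promoters come from RefSeq TAIR10.1, which matched by locus identifier.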

Additional observations from a re-analysis of the deposited data

How the results depend on the processing

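No count over all genes moved by more than 1.5 times; counts within lists did in some settings, where at most 7 members were called. The 9862 calls became 9870 with DESeq2 size factors, 9990 with library totals, 9878 with no filter, 9613 with DESeq2's Wald test and 9960 with the 6 mutant libraries alone. Leaving out 1 library gave 8437 to 10232 calls, and 2-fold counts ran from 1912 to 2222 over all settings. Of the main calls, 9130 were shared with library totals, where the median log2 difference of all genes was -0.07 and 42.5% of calls were higher in spaQ, against 50.5%. The labels give the genotypes the same replicate numbers, but same-numbered cop1-4 and spaQ libraries did not deviate together (correlations 0.003, 0.021 and 0.027). Between Col-0 and cop1-4 some correlations were larger: cop1-4 replicate 1 had 0.39 with Col-0 replicate 2 and -0.31 with Col-0 replicate 3. What these libraries shared was not tested. Leaving out cop1-4 replicate 1 moved the medians of 10 of the 39 lists by at least their spread between replicates. With the replicate block 9585 genes were called, 2038 of them at 2-fold. Of 278 genes checked singly, 271 of which could be tested with the 6 mutant libraries alone, 276 kept direction and call in each setting that tested them; the other 2, SPA2 and SESA1, are described with their values. Genes with few reads are limited by depth, and fitted differences of some moved when 1 library was left out, as for DFR, EM6 (4.70 to 6.73) and OLEO1.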

Other observations

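Families grouped by annotated product name were looked at after their values were seen, so their counts are descriptions. Of 313 tested genes whose product name matched ribosomal proteins, 238 (76.0%) were higher in spaQ and 7 lower. The shares over all genes were 24% and 23.5%. The median log2 difference of the group was 0.47, and without spaQ replicate 2 the lower count was 4. A match by name also takes in some other genes, such as the elongation factor gene eEF-1Bb1 (-0.06, not called). RPL24A had 76.3, 68.4 and 68.6 CPM in cop1-4 and 141, 136 and 132 CPM in spaQ, and the plastid PRPL11 had 211, 204 and 190 against 366, 338 and 374 CPM. Proteins of the plastid transcription complex were higher for 12 of 15 (median 0.68). Short genes leaned higher in general: the median over all genes was 0.07 for exon lengths up to 1135 bases and -0.12 from 2564 bases. Among the short genes the median was 0.49 for 195 ribosomal protein genes and 0.04 for 3960 others. The part of length in the family's difference beyond this was not tested.

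Families that leaned lower included CYP705A cytochromes P450 (17 of 19 lower, 1 higher, median -0.97) and laccases (9 of 15 lower, none higher, median -1.10). So did MLO membrane proteins (11 of 14 lower, 1 higher), aquaporins (15 of 26 lower, 2 higher) and amino acid transporters (19 of 32 lower, 4 higher). The laccase median was -0.77 with the 6 mutant libraries alone, where 14 were tested. Without cop1-4 replicate 3, 1 laccase was higher. CYP705A5, of a triterpene gene cluster active in roots, had 36.0, 47.6 and 63.6 CPM in cop1-4 and 4.16, 3.85 and 6.06 CPM in spaQ (log2 -3.40). The lignin laccases LAC17 and IRX12 fell by 1.44 and 1.24, the aquaporins TIP2;2 and PIP2;4 by 2.24 and 2.02, and MLO3 by 2.26, while MLO9 rose by 1.83. Root markers were lower in the same libraries, and their part in these falls was not tested. Of all genes tested 23.5% were lower and 24% higher. Resistance genes of the TIR-NBS-LRR type were lower for 31 of 79 (39.2%) and higher for 8 (10.1%). Their median exon length was 4006 bases, and of all genes from 2564 bases 28.8% were lower and 13.8% higher. The part of length was not tested. Without spaQ replicate 1, 20 were lower, and without spaQ replicate 3, 21 were. Without cop1-4 replicate 1, 21 were lower and 12 higher. Leaving out cop1-4 replicate 2, cop1-4 replicate 3 or spaQ replicate 2, or scaling by library totals, gave 4 or 5 higher. Summed levels of these resistance genes were 2093, 1625 and 1557 CPM in cop1-4 and 1464, 1581 and 1486 CPM in spaQ.

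Genes close to the targeted loci were also counted after the values were seen. At 2-fold, the share within 1 Mb on each side was 14.1% at SPA2, 10.6% at COP1, 8.29% at SPA4, 7.32% at SPA1 and 7.14% at SPA3. Over all genes it was 9.88%. Of all genes tested 0.813% were called with at least an 8-fold difference. Within 1 Mb on each side the share was 2.56% at SPA2 (8 of 312 genes), 1.55% at SPA4 (6 of 386), 1.2% at COP1 (5 of 416), 0.433% at SPA3 (2 of 462) and 0.244% at SPA1 (1 of 410). Near SPA2 these included TT8, AT4G11320, a papain-type protease gene with 158, 207 and 199 CPM in cop1-4 and 13.1, 11.3 and 14.7 CPM in spaQ, OSM34 (log2 -4.21) and AIR1 (log2 -3.65), and near COP1 they included LHCB1.4. Both direct neighbours of SPA4 were called at 8-fold. AT1G53080 had 0.0978, 0.194 and 0.232 CPM in cop1-4 and 1.57, 1.8 and 1.72 CPM in spaQ, and AT1G53100 had 11, 13 and 14 reads in cop1-4 and 0 in every spaQ library, at least 4.85-fold lower against a floor of 3 reads per library. Linked background sequence and genotype cannot be told apart in this design.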
